A study of Mus musculus with 18 samples.

Results

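The mitosis genes described here are 44 genes, taken by symbol from a table of 55450 mouse genes, whose products run the division of the cell: the cyclin B kinase and its activators, the mitotic kinases, the spindle checkpoint, the anaphase machinery, the kinetochore, the mitotic kinesins and the proteins of cytokinesis. The list was drawn up by gene function, with earlier results of these data known. RNA was sequenced from 3 mouse tumour lines, each with 3 control and 3 sildenafil libraries: 4T1, a breast carcinoma line, MC38, a colon adenocarcinoma line, and LLC, the Lewis lung carcinoma line. Controls received DMSO, the solvent, and treated cells received 100 µM sildenafil citrate, an inhibitor of the cGMP phosphodiesterase PDE5. Treatment lasted 24 h in 4T1 and MC38 and 48 h in LLC. All cells carry the label W.T for genotype. The 4T1 cells grew in RPMI medium and the other lines in DMEM, so line, culture medium and, for LLC, treatment time cannot be told apart. Whether the 3 libraries of a group stem from independent cultures is not labelled; the p-values speak only of the spread among them, part of which may be technical.

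Cells enter mitosis when cyclin B and Cdk1 become active, helped by Cdc25 phosphatases and by the kinases Plk1 and Aurka. The spindle checkpoint then holds back the anaphase-promoting complex (APC/C) until every kinetochore is attached, after which Cdc20 lets the complex destroy securin and cyclin B and separase cuts cohesin. Transcripts of these genes accumulate late in the cycle under B-MYB, Foxm1 and the MuvB complex, which binds the cell cycle homology region (CHR), often beside CCAAT boxes bound by NF-Y, and they are low in cells that do not divide. In these bulk libraries fewer cells in mitosis and less RNA per cell cannot be told apart.

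Library totals ran from 26348659 to 61600675 expected counts, and every member passed the filter on low counts in every line, with 599 to 41658 counts per library. Protein-coding genes held 97.1% to 97.3% of the counts in 4T1 but 87.3% to 89.7% in MC38 and LLC, where RNAs without a poly(A) tail were frequent. The share of one of these, Gm26917, was 0.890% to 1.41% in MC38 controls and 0.489% to 0.590% after sildenafil, and 0.967% to 2.97% against 0.588% to 1.39% in LLC. In 4T1 it moved the other way at a far lower level, from 0.0157% to 0.0163% in controls to 0.0244% to 0.0285% after sildenafil, and the 7 listed RNAs without a poly(A) tail summed to 906 to 1137 CPM in controls and 1286 to 1712 CPM after sildenafil, with no overlap. LLC control replicate 3 stood apart from the other LLC controls. All 10 epithelial markers listed reached 1 CPM in 4T1, but 3 did in MC38, and 7 of 10, Epcam and Cdh1 among them, were at 0 in every LLC control. The 15 leukocyte markers, 3 of which reached 1 CPM, summed to 41.3 to 43.1 CPM in 4T1 controls and 96.2 to 105 CPM after sildenafil. They summed to 15.7 to 16.02 against 25.1 to 26.1 CPM in MC38 and 8.01 to 8.42 against 9.58 to 11.5 CPM in LLC. Cd3e, Nkg7, S100a9 and Adgre1 were at 0 in the 6 libraries of 4T1, and every other leukocyte marker had a count in some of them. The 10 fibroblast markers summed to 47.9 to 55.5 against 103 to 119 CPM in 4T1, 1159 to 1177 against 1084 to 1109 CPM in MC38 and 1148 to 1220.4 against 2224 to 2261 CPM in LLC, and the 6 endothelial markers to at most 2.37 CPM. The part of these RNAs in the results below was not tested.

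Promoter sequences are shown first because these genes are known for a shared promoter layout. RefSeq windows of 300 bases (250 before the start site and 50 after, mouse build GRCm38.p6) were at hand for 35 of the 44 genes, as 38 windows; Kif20a, Cdc25c, Aurkb, Dlgap5, Ccna2, Tpx2, Spc24, Foxm1 and Incenp had none. Both strands were searched for CCAAT (the NF-Y box), for the CHR element TTTGAA and its variant TTCGAA, and for the E2F motif GGCGGGAA; no motif of these contains another. Capitals below mark the matches, read 5′ to 3′ on the gene's strand, from 150 bases before the start site up to it or to the end of a match just past it. Espl1 and Kif23 are shown as the members called in the same direction in all lines, and Cdc20 and Ccnb2, picked after their values were seen, as members that fell and rose.
Espl1 (chr15:102296143-102296292, + strand): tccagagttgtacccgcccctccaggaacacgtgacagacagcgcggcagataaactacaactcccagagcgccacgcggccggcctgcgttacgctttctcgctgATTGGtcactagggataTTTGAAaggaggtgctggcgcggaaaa
Kif23 (chr9:61946792-61946949, − strand): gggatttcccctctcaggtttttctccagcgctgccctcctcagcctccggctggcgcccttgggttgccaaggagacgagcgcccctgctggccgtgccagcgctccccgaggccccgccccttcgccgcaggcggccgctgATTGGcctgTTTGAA
Cdc20 (chr4:118437344-118437493, − strand): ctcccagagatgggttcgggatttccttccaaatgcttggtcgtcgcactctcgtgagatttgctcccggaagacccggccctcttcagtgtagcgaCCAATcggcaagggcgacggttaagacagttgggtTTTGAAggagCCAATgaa
Ccnb2 (chr9:70421545-70421704, − strand): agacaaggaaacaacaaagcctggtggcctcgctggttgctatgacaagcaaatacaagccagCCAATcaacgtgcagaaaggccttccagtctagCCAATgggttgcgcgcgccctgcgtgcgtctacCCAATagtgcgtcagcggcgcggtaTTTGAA

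In all 4 stretches a CCAAT box, read as ATTGG where it lies on the other strand, stood close to a CHR. The bases between the nearest pair numbered 12 in Espl1, 4 in Kif23, 4 in Cdc20 and 20 in Ccnb2. CCAAT was found in 78.9% of the 38 member windows and in 37.4% of all 32851 windows of the table. TTTGAA was found in 76.3% of member windows and 17.9% of all, TTCGAA in 10.5% and 1.56%, and GGCGGGAA in 0 member windows and 2.19% of all. A CCAAT and a CHR of either kind occurred together in 71.1% of member windows, 24 of the 35 genes, and in 7.53% of all. Where both occurred, the nearest pair lay 21 bases apart at the median in members and 57 bases apart over all windows. A window with more matches has more pairs to take the nearest from. In member windows 2 or more CCAAT occurred in 55.3%, against 11.7% of all windows. The part of this in the spacing was not tested. These are matches of letters, not sites of binding. The RefSeq start lay within 50 bases of the GENCODE gene start for 29 of the 38 windows; it lay more than 200 bases from it for 5 windows, those of Kif2c (3867 bases downstream), Cdca8 (2394), Kif4 (328), Pttg1 (270) and 1 of the 2 of Bub3 (272). The windows of Pttg1, with no match, and Kif2c, with a CHR alone, count below as lacking the pair.

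**Figure D1:**
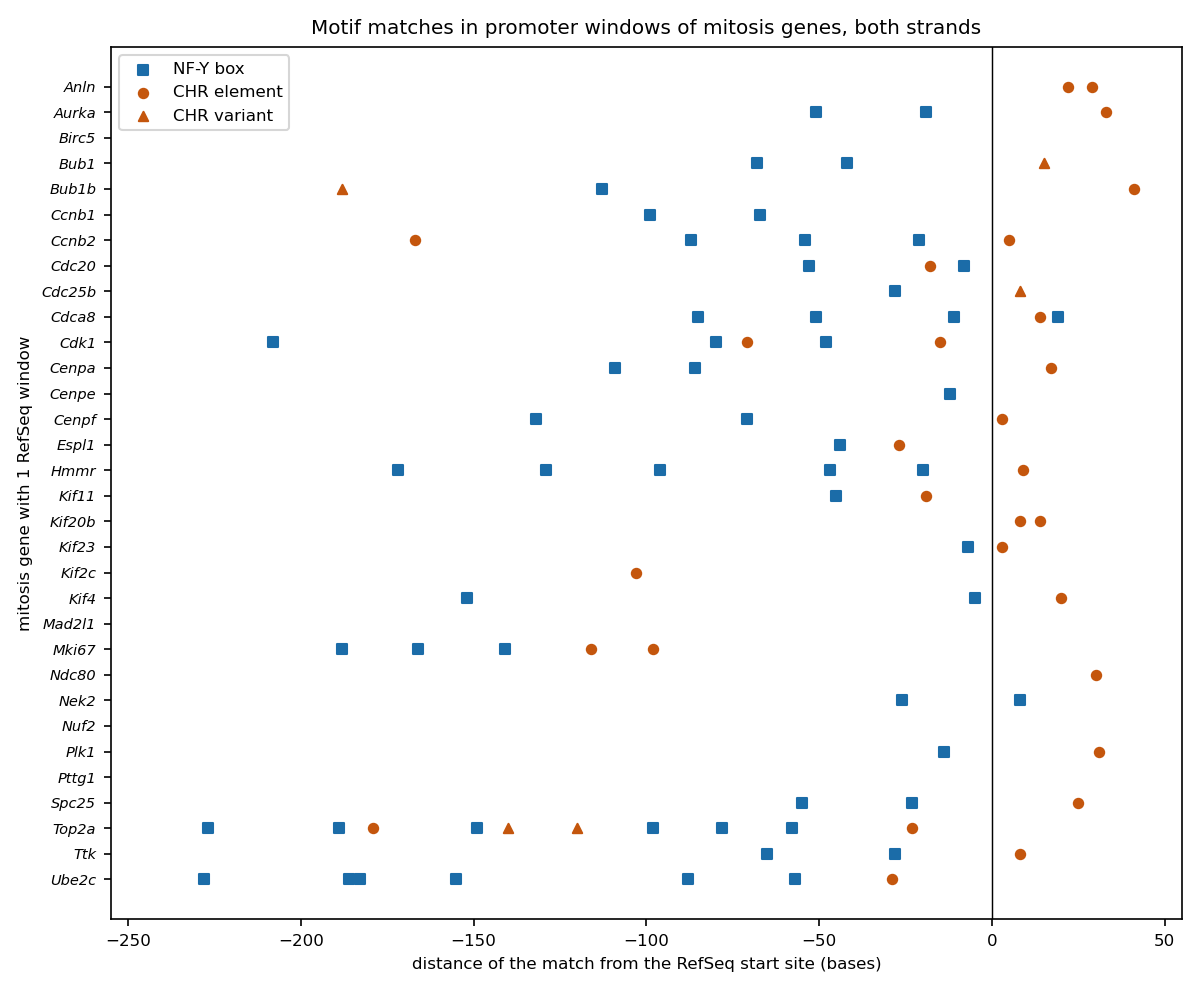
Motif matches in the promoter windows of the 32 mitosis genes with 1 RefSeq window; the x axis is the distance in bases from the RefSeq start site and each row is a gene. Blue squares (NF-Y box, CCAAT) lie mostly upstream of the orange CHR matches, which cluster around the start site.

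The first comparison asked how the genes changed with sildenafil within each line. In 4T1 at 24 h, 28 of the 44 mitosis genes fell and 5 rose, in MC38 at 24 h 18 fell and 1 rose, and in LLC at 48 h 6 fell and 3 rose (edgeR quasi-likelihood test, adjusted p under 0.05 over all genes tested). The changes were small: the median log2 fold change was −0.17 in 4T1, −0.07 in MC38 and −0.01 in LLC, against 0.00, 0.00 and −0.01 over all genes tested. Only Spc24 in 4T1 changed by more than 1.5-fold. Many genes changed in these cells: of 13914 genes tested in 4T1, 33.3% were called lower and 33.5% higher, beside 63.6% and 11.4% of the mitosis genes. In MC38 18.3% of genes were called lower and 19.5% higher, beside 40.9% and 2.27% of the members. In LLC 12.2% were called lower and 15.1% higher, beside 13.6% and 6.82% of the members, so that the share lower was near the background and the share higher below it. Scaled by library totals alone, the 4T1 split was 23 lower and 10 higher in place of 28 and 5. Single libraries moved some of these counts: 9 were higher in 4T1 without sildenafil replicate 3, and in LLC 1 was lower without sildenafil replicate 2, 0 were higher without sildenafil replicate 3, and 10 were lower and 8 higher without control replicate 3. With the Gm26917 level as a covariate, 4 were lower and 0 higher in MC38. That level went largely with treatment there (squared correlation 0.856), so a call lost in this fit decides nothing.

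Summed over the 44 genes, the level in TPM (counts divided by gene length, then scaled to the same total over protein-coding genes in each library) was 4702 to 4826 in 4T1 controls and 4349 to 4575 after sildenafil. It was 5095 to 5206 against 4877 to 5092 in MC38, and 5851 to 6396 against 5754 to 5857 in LLC. The groups did not overlap in 4T1 or MC38; in LLC 1 sildenafil library reached into the control range. Within 4T1, sildenafil replicate 3 was the lowest, with 38 of 44 genes below the control mean against 30 in each of the other sildenafil libraries.

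**Figure D2:**
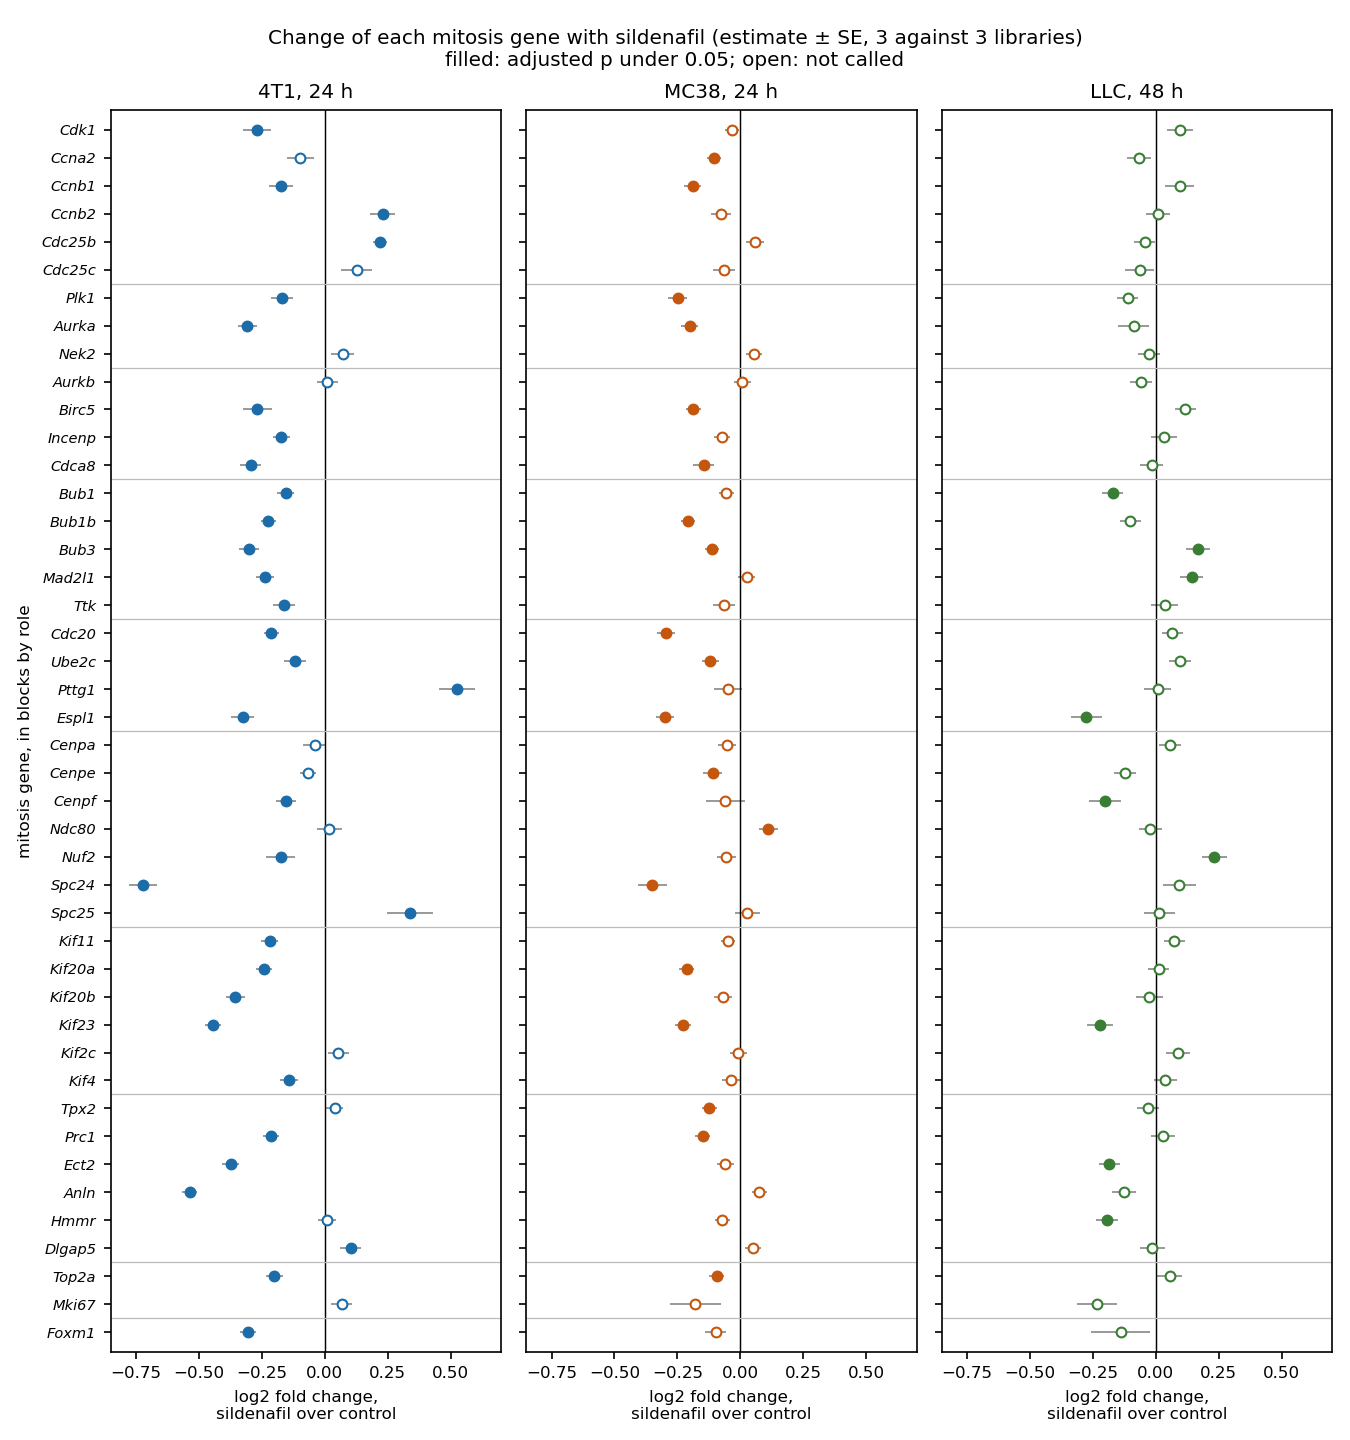
Log2 fold change with sildenafil (x axis, estimate ± SE, 3 against 3 libraries) of each mitosis gene (rows, in blocks by role) in 4T1, MC38 and LLC; filled points passed an adjusted p of 0.05. In 4T1 28 filled points lie left of 0 and 5 right of it, in LLC 6 and 3.

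Espl1 and Kif23 fell in all 3 lines, a pattern whose share over all genes was not counted. Espl1 is separase, the protease that cuts cohesin at anaphase. In 4T1 it measured 62.02, 64.2 and 60.1 CPM in the control libraries and 51.03, 51.6 and 45.8 CPM in the sildenafil libraries (CPM, counts relative to the library total, scaled within the line), a log2 fold change of -0.33 ± 0.05 (SE; edgeR adjusted p = 2.96e-05). In MC38 it measured 111, 114 and 119 CPM in the control libraries and 90.3, 96.8 and 92.4 CPM in the sildenafil libraries, a log2 fold change of -0.30 ± 0.04 (SE; edgeR adjusted p = 1.15e-05). In LLC it measured 197, 202 and 173 CPM in the control libraries and 162, 159 and 152 CPM in the sildenafil libraries, a log2 fold change of -0.28 ± 0.06 (SE; edgeR adjusted p = 0.00951). The groups did not overlap in any line, and the estimated falls were 20.2%, 18.7% and 17.5%. Kif23, the kinesin of the central spindle needed for cytokinesis, measured 182, 179.7 and 174 CPM in the control libraries and 127, 131 and 135 CPM in the sildenafil libraries in 4T1, a log2 fold change of -0.44 ± 0.03 (SE; edgeR adjusted p = 4.33e-08). In MC38 it measured 119.6, 119.9 and 119 CPM in the control libraries and 103, 98.4 and 104 CPM in the sildenafil libraries, with -0.23 ± 0.03 (SE; edgeR adjusted p = 4.16e-05). In LLC it measured 113, 118 and 111 CPM in the control libraries and 99.3, 92.1 and 101 CPM in the sildenafil libraries, with -0.22 ± 0.05 (SE; edgeR adjusted p = 0.0105). Every sildenafil library was below every control here too. The LLC calls rested on single libraries: adjusted p for Espl1 was 0.0591 without LLC sildenafil replicate 3, and for Kif23 0.0701 without LLC sildenafil replicate 2. When the Gm26917 level entered the model, neither was called in MC38 (edgeR adjusted p = 0.455 for Espl1 and 0.0531 for Kif23). The squared correlation of that level with treatment was 0.856 in MC38, so these lost calls decide nothing. In LLC, where it was 0.468, Espl1 was not called (edgeR adjusted p = 0.0772) and Kif23 was (0.0379).

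Cyclins, Cdk1 and the Cdc25 phosphatases moved in both directions. Cdk1, the catalytic subunit of the mitotic kinase, measured 174, 183 and 179 CPM in the control libraries and 153, 158 and 133 CPM in the sildenafil libraries in 4T1, a log2 fold change of -0.27 ± 0.05 (SE; edgeR adjusted p = 0.00123). The groups did not overlap. Its changes in MC38 (-0.03 ± 0.03) and LLC (0.10 ± 0.05) were not called. Ccnb1, its mitotic cyclin, measured 153, 162 and 158 CPM in the control libraries and 146, 145 and 127 CPM in the sildenafil libraries in 4T1, with -0.18 ± 0.05 (SE; edgeR adjusted p = 0.00666). In MC38 Ccnb1 measured 238, 238 and 222 CPM in the control libraries and 208, 199 and 205 CPM in the sildenafil libraries, with -0.19 ± 0.03 (SE; edgeR adjusted p = 0.000309). In LLC it stood at 0.10 ± 0.06 and was not called. Ccnb2, the other mitotic B cyclin, went the opposite way in 4T1: it measured 134, 137 and 139 CPM in the control libraries and 167, 168 and 145 CPM in the sildenafil libraries, a rise of 0.23 ± 0.05 (SE; edgeR adjusted p = 0.00195). Cdc25b, a phosphatase that activates Cdk1, rose in 4T1 as well: it measured 153, 154 and 151 CPM in the control libraries and 180.4, 175 and 178 CPM in the sildenafil libraries, with 0.22 ± 0.03 (SE; edgeR adjusted p = 1.19e-05). Both risers were free of overlap between groups, and neither was called in MC38 or LLC. Ccna2, the cyclin of S phase and early mitosis, was called lower in MC38 alone (-0.10 ± 0.03). Its estimates were -0.10 in 4T1 and -0.07 in LLC, and no difference between lines was called. Cdc25c was called in no line.

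Of the mitotic kinases, Plk1 and Aurka fell in 4T1 and MC38. Plk1, which drives mitotic entry and spindle assembly, measured 99.99, 106 and 102 CPM in the control libraries and 94.03, 94.9 and 84.7 CPM in the sildenafil libraries in 4T1, with -0.17 ± 0.04 (SE; edgeR adjusted p = 0.00353). In MC38 Plk1 measured 70.3, 73.8 and 70.1 CPM in the control libraries and 59.9, 62.4 and 57.96 CPM in the sildenafil libraries, with -0.25 ± 0.04 (SE; edgeR adjusted p = 0.000118). The groups did not overlap in either line, nor in LLC, where the change of -0.11 ± 0.04 was not called. Aurka, the centrosome and spindle pole kinase, measured 102, 109 and 105 CPM in the control libraries and 87.4, 86.9 and 81.3 CPM in the sildenafil libraries in 4T1, with -0.31 ± 0.04 (SE; edgeR adjusted p = 8.48e-06). In MC38 Aurka measured 97.3, 92.2 and 93.4 CPM in the control libraries and 83.2, 82.1 and 80.7 CPM in the sildenafil libraries, with -0.20 ± 0.03 (SE; edgeR adjusted p = 0.000201). Every treated library lay below the controls in both lines, while in LLC the groups overlapped (-0.09 ± 0.06, not called). Nek2, a centrosome-splitting kinase, was called in no line. In the chromosomal passenger complex, which corrects wrong attachments, the kinase Aurkb itself changed by 0.01, 0.01 and -0.06 in 4T1, MC38 and LLC and was never called. Its partners survivin (Birc5) and borealin (Cdca8) fell in 4T1 (-0.27 and -0.30) and in MC38 (-0.19 and -0.15). The scaffold Incenp was called lower in 4T1 alone (-0.17), with estimates of -0.07 in MC38 and 0.03 in LLC. The difference from 4T1 was called for LLC and not for MC38.

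The spindle checkpoint was the one role in 4T1 of more than 1 gene in which every member fell: Bub1, Bub1b, Bub3, Mad2l1 and Ttk changed by −0.16 to −0.30. Most of the 44 mitosis genes fell there, and 33.3% of all genes were called lower. Ttk was not called with scaling by library totals alone. In MC38 2 of the 5 checkpoint genes fell, Bub1b and Bub3. In LLC Bub1 fell, while Bub3 and Mad2l1 rose. Bub3, which carries Bub1 and BubR1 to kinetochores, measured 158, 164 and 165 CPM in the control libraries and 136, 136 and 123 CPM in the sildenafil libraries in 4T1, with -0.30 ± 0.04 (SE; edgeR adjusted p = 1.38e-05). In LLC Bub3 measured 154, 154 and 167 CPM in the control libraries and 176, 179 and 179 CPM in the sildenafil libraries, with 0.17 ± 0.05 (SE; edgeR adjusted p = 0.0257). All treated libraries were below the controls in 4T1 and all were above them in LLC. Mad2l1, the checkpoint protein that captures Cdc20, measured 101, 103 and 96.2 CPM in the control libraries and 109.8, 109 and 112 CPM in the sildenafil libraries in LLC, with 0.14 ± 0.04 (SE; edgeR adjusted p = 0.0401). The LLC rises of Bub3 and Mad2l1 were each lost on leaving out any of 5 of the 6 libraries, with the largest adjusted p at 0.102 and 0.148, and both were kept without control replicate 3. Mad2l1 was also not called in DESeq2 (adjusted p = 0.075), with a filter of 5 CPM or with protein-coding genes alone, and Bub3 not with the Gm26917 level in the model (0.17).

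In the anaphase machinery Cdc20, the activator of the APC/C, fell in 4T1 and MC38. It measured 181, 192 and 189 CPM in the control libraries and 163, 161 and 160.2 CPM in the sildenafil libraries in 4T1, with -0.21 ± 0.03 (SE; edgeR adjusted p = 2.98e-05). In MC38 it measured 158, 163 and 151 CPM in the control libraries and 132, 128 and 125 CPM in the sildenafil libraries, with -0.29 ± 0.03 (SE; edgeR adjusted p = 7.72e-06). In both the groups stood apart, and in LLC the estimate was 0.07 ± 0.04 and not called. Ube2c, the ubiquitin-conjugating enzyme of the complex, fell by 0.12 on the log2 scale in 4T1 and in MC38. Pttg1, securin, the inhibitor of separase, made the largest rise of any member: in 4T1 it measured 41.8, 40.8 and 41.6 CPM in the control libraries and 64.5, 62.1 and 51.8 CPM in the sildenafil libraries, with 0.53 ± 0.07 (SE; edgeR adjusted p = 0.000105), or 1.44-fold. All treated libraries exceeded the controls, and replicate 3 was the lowest of them. Pttg1 was not called in MC38 (-0.05 ± 0.06) or LLC (0.01 ± 0.05). In 4T1, then, the transcripts of separase and of its inhibitor moved in opposite directions.

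**Figure D3:**
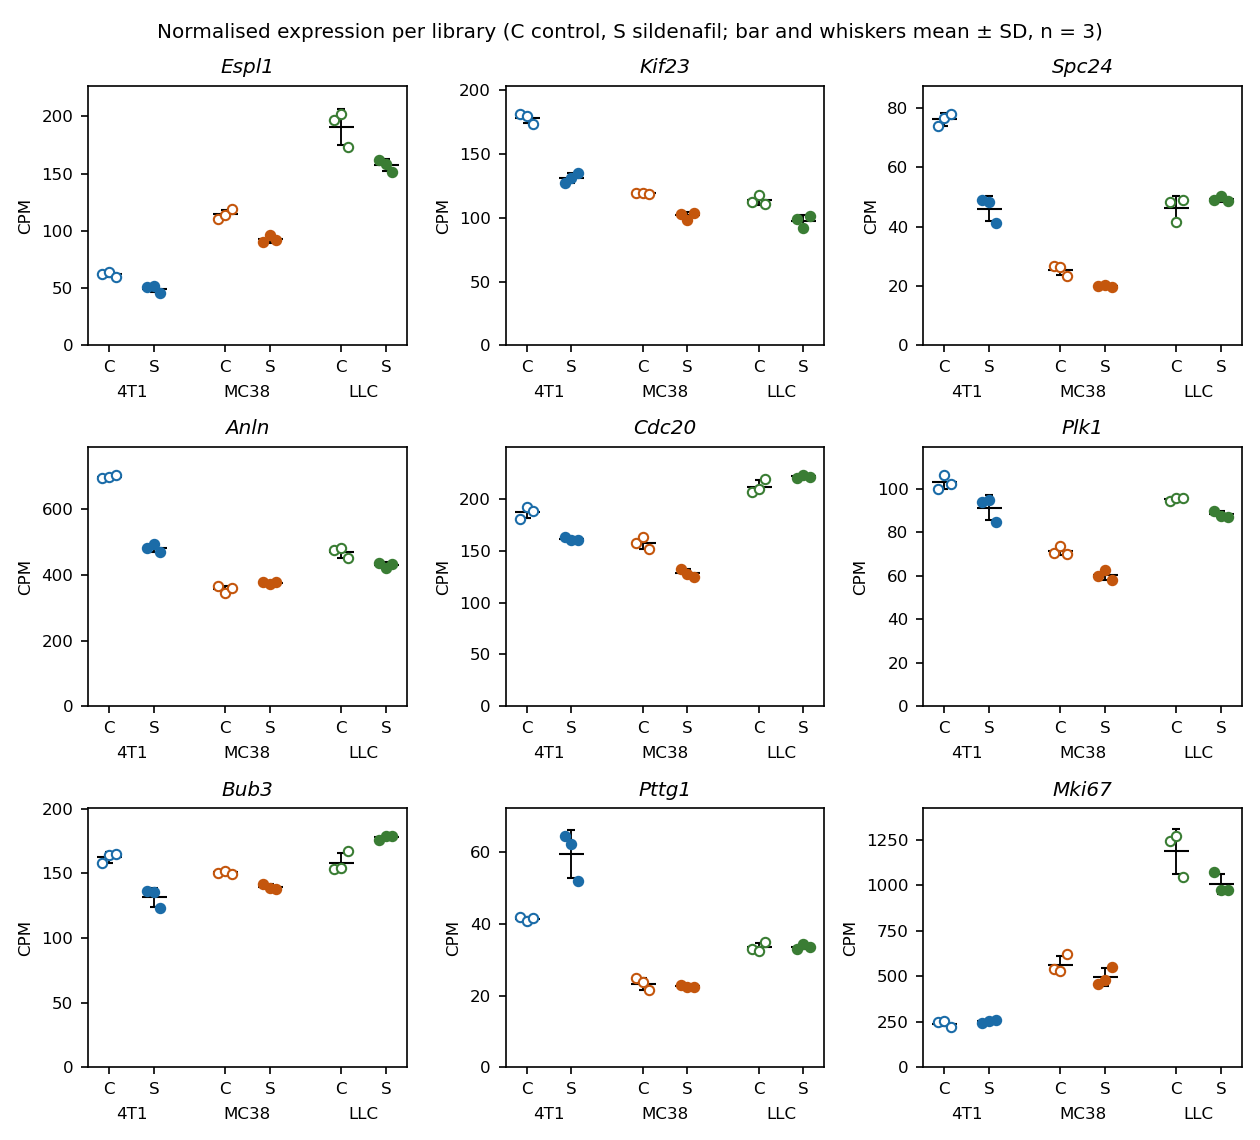
Normalised CPM (y axis, from 0) of 9 mitosis genes in each library, controls open and sildenafil filled, with mean ± SD (n = 3); values are scaled within each line. Espl1 and Kif23 are lower after sildenafil in each line, Pttg1 is higher in 4T1 alone, and Bub3 is lower in 4T1 and higher in LLC.

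At the kinetochore, the 4 subunits of the Ndc80 complex, which binds microtubules, did not move together in 4T1. Spc24 made the largest fall of any member: it measured 73.8, 76.7 and 78.03 CPM in the control libraries and 48.9, 48.1 and 41.2 CPM in the sildenafil libraries, with -0.72 ± 0.06 (SE; edgeR adjusted p = 2.92e-07), a fall of 39.3%. Its direct partner Spc25 measured 16.3, 17.9 and 16.1 CPM in the control libraries and 22.7, 23.02 and 17.7 CPM in the sildenafil libraries, a rise of 0.34 ± 0.09 (SE; edgeR adjusted p = 0.00777). Treated replicate 3 of Spc25 lay within the control range, whereas the Spc24 groups stood far apart. Nuf2 fell in 4T1 (-0.18 ± 0.06) and Ndc80 was not called (0.02 ± 0.05). In MC38 Spc24 measured 26.6, 26.3 and 23.5 CPM in the control libraries and 20.1, 20.4 and 19.5 CPM in the sildenafil libraries, with -0.35 ± 0.06 (SE; edgeR adjusted p = 0.00016). Ndc80 made the one rise in MC38: it measured 54.4, 54.4 and 51.6 CPM in the control libraries and 56.7, 57.5 and 59.1 CPM in the sildenafil libraries, with 0.11 ± 0.04 (SE; edgeR adjusted p = 0.0328). That call was lost without control replicate 3, sildenafil replicate 2 or sildenafil replicate 3 (adjusted p up to 0.115) and in DESeq2 (adjusted p = 0.118). In LLC Nuf2 rose: it measured 87.4, 93.4 and 95.8 CPM in the control libraries and 106, 107 and 112 CPM in the sildenafil libraries, with 0.23 ± 0.05 (SE; edgeR adjusted p = 0.00798). The groups did not overlap, and without LLC sildenafil replicate 3 the adjusted p was 0.0515, and with the Gm26917 level in the model it was 0.0576. Cenpf, a kinetochore and nuclear matrix protein, measured 401, 438 and 369 CPM in the control libraries and 357, 348 and 344 CPM in the sildenafil libraries in LLC, a fall of -0.20 ± 0.06 (SE; edgeR adjusted p = 0.0372), which was lost on leaving out any library but control replicate 3 (adjusted p up to 0.141). Cenpa, the centromeric histone, was called in no line. The kinesin Cenpe was called lower in MC38 alone (-0.11 ± 0.04). Its estimates were -0.12 in LLC and -0.07 in 4T1, and no difference between lines was called.

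Of the 6 mitotic kinesins, 5 fell in 4T1 (Kif11, Kif20a, Kif20b, Kif23 and Kif4, from −0.14 to −0.44), 2 in MC38 (Kif20a and Kif23) and Kif23 in LLC. Over all genes, 33.3% were called lower in 4T1, 18.3% in MC38 and 12.2% in LLC. The 4T1 call of Kif4 was lost with scaling by library totals alone. Kif2c, a microtubule depolymerase, was called in no line. Among the factors of spindle assembly and cytokinesis, Anln, the anillin scaffold of the contractile ring, had the highest TPM of these in 4T1. It measured 695, 698 and 704 CPM in the control libraries and 481, 494 and 469.6 CPM in the sildenafil libraries in 4T1, with -0.54 ± 0.03 (SE; edgeR adjusted p = 2.52e-09), a fall of 31.1%. In MC38 the estimate was 0.08 ± 0.03 (SE; edgeR adjusted p = 0.0535), not called here but called higher under 5 of 9 other settings. Ect2, the exchange factor that activates RhoA at the division plane, measured 254, 264 and 254 CPM in the control libraries and 199.6, 206 and 190.3 CPM in the sildenafil libraries in 4T1, with -0.37 ± 0.03 (SE; edgeR adjusted p = 3.34e-07). The groups of Anln and Ect2 stood far apart in 4T1, and Ect2 fell in LLC as well (-0.19 ± 0.04). Prc1, which bundles the central spindle, fell in 4T1 (-0.22 ± 0.03) and MC38 (-0.15 ± 0.03). Hmmr, a spindle pole protein, measured 158, 166 and 168 CPM in the control libraries and 145, 144 and 141 CPM in the sildenafil libraries in LLC, with -0.19 ± 0.04 (SE; edgeR adjusted p = 0.00999), and stood at 0.01 ± 0.04 in 4T1, not called. Dlgap5, a kinetochore fibre protein, rose in 4T1 by 0.10 ± 0.04 with overlapping groups, a call kept without control replicate 2 or sildenafil replicate 3 and lost without any other library (adjusted p up to 0.211). Tpx2, the activator of Aurka, was called lower in MC38 alone (-0.12 ± 0.03), with estimates of 0.04 in 4T1 and -0.03 in LLC. The difference from MC38 was called for 4T1 and not for LLC.

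Top2a and Mki67 are the usual proliferation markers. Top2a, which untangles chromosomes, measured 589, 596 and 570.0 CPM in the control libraries and 510.2, 529 and 487 CPM in the sildenafil libraries in 4T1, with -0.20 ± 0.03 (SE; edgeR adjusted p = 0.000154). In MC38 Top2a measured 1192, 1165 and 1227 CPM in the control libraries and 1109, 1116 and 1132 CPM in the sildenafil libraries, with -0.09 ± 0.03 (SE; edgeR adjusted p = 0.0167). Both falls were free of overlap, and the LLC estimate of 0.06 ± 0.05 was not called. Mki67, which coats mitotic chromosomes, measured 247, 252 and 223 CPM in the control libraries and 246, 253 and 258 CPM in the sildenafil libraries in 4T1, with 0.07 ± 0.04 (SE; edgeR adjusted p = 0.175). In MC38 it measured 538, 531 and 620.2 CPM in the control libraries and 459.9, 480.1 and 553 CPM in the sildenafil libraries, with -0.18 ± 0.10 (SE; edgeR adjusted p = 0.259). In LLC it measured 1244, 1272 and 1044 CPM in the control libraries and 1073, 976 and 976 CPM in the sildenafil libraries, with -0.23 ± 0.08 (SE; edgeR adjusted p = 0.0517). The Mki67 groups overlapped in every line and no change was called. In LLC, though, the fall was close to the threshold: it was called under 6 of 9 other settings, DESeq2 among them (adjusted p = 0.0207), and without control replicate 3 (edgeR adjusted p = 5.0e-05). Foxm1, a transcription factor of the other members, measured 149, 146 and 139.9 CPM in the control libraries and 117, 117 and 118 CPM in the sildenafil libraries in 4T1, with -0.31 ± 0.03 (SE; edgeR adjusted p = 1.46e-06). Its groups were well apart there, while in MC38 (-0.10 ± 0.04) and LLC (-0.14 ± 0.12) the change was not called.

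Across the lines, 2 genes fell in all 3, 15 fell in 2 lines and rose in none, and 12 fell in 1 line and rose in none. A further 6 rose in 1 line and fell in none, 2 rose in 1 line and fell in another, and 1, Bub3, fell in 2 and rose in the third. The share of all genes with each of these patterns was not counted. Line by line, 33.3% of all genes were called lower and 33.5% higher in 4T1, 18.3% and 19.5% in MC38, and 12.2% and 15.1% in LLC. The 6 called in no line were Cdc25c, Nek2, Aurkb, Cenpa, Kif2c and Mki67. Of these, Cdc25c in 4T1 (0.13 ± 0.06) was called higher under 4 of 8 other settings, and Mki67 in LLC lower under 6 of 9. Of the genes with a promoter window, 18 of the 24 that fell in 4T1 held both a CCAAT and a CHR match, as did 3 of the 4 that rose and 3 of the 7 not called. In MC38 11 of the 14 that fell held both, as did 13 of the 20 not called, and the 1 that rose did not. In LLC all 6 that fell held both, as did 1 of the 3 that rose and 17 of the 26 not called. Among all members with a window, 24 of 35 held both. Whether the pair goes with the calls was not tested.

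Several of the smaller falls rested on single libraries, given here with the largest adjusted p among the refits that leave out 1 library. In 4T1 Ube2c was not called without control replicate 2 or 3 (0.104) and Nuf2 without control replicate 2 (0.0688). In MC38 Ccna2 was lost without control replicate 1 or sildenafil replicate 2 (0.0684), Ube2c without control replicate 1 (0.0503) and Cdca8 without sildenafil replicate 1 (0.065). Top2a was lost there without control replicate 1 or 3 or sildenafil replicate 2 (0.0882), and Cenpe without any library but control replicate 2 or sildenafil replicate 3 (0.152). In LLC Bub1 was lost without any 1 of the sildenafil libraries (0.0655), Hmmr without sildenafil replicate 2 or 3 (0.0633) and Ect2 without sildenafil replicate 2 (0.0798). The estimates of Cdca8 and Cenpe in MC38 were 0.0056 (edgeR adjusted p = 0.981) and 0.0017 (edgeR adjusted p = 0.994) with the Gm26917 level in the model. That fit separates the level from treatment poorly (squared correlation 0.856).

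The second comparison tested whether the change with sildenafil differed between lines, as the difference of the log2 fold changes in a fit over all 18 libraries. Comparisons with 4T1 share its libraries. The change was higher (less negative, or positive) in LLC than in 4T1 for 23 mitosis genes and lower for 5, where 21.8% and 20.2% of 16040 genes were called, and the median difference was 0.17 (−0.03 over all genes). The count of 5 was 3 without 4T1 sildenafil replicate 1 or 2, 7 without 4T1 control replicate 2 or sildenafil replicate 3, and 10 with library totals alone or a filter of 5 CPM. Between MC38 and 4T1, both at 24 h, it was higher in MC38 for 9 and lower for 6 (17.9% and 16.7% of all genes), with a median of 0.03. Between LLC and MC38 it was higher in LLC for 11 and lower for 1 (12.6% and 9.68%), with a median of 0.10.

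Among the higher changes in LLC than in 4T1, Spc24 differed most, by 0.81 ± 0.09 (SE; edgeR adjusted p = 1.61e-07), and Bub3 came next, with 0.47 ± 0.06 (SE; edgeR adjusted p = 8.16e-07). Between MC38 and 4T1 Anln differed most, with 0.60 ± 0.05 (SE; edgeR adjusted p = 4.37e-09). Pttg1 had a lower change in both other lines than in 4T1, by -0.59 in MC38 and -0.52 in LLC. The same held for Spc25, with -0.33 and -0.32. Between LLC and MC38, Cdc20 (0.38 ± 0.05 (SE; edgeR adjusted p = 1.32e-05)) and Birc5 (0.32 ± 0.07 (SE; edgeR adjusted p = 0.0014)) had higher changes in LLC, and Anln had the one lower change called there; this count was 0 without a filter, 2 with protein-coding genes alone and 5 with a filter of 5 CPM. Anln differed by -0.19 ± 0.05 (SE; edgeR adjusted p = 0.00982). For Espl1 no difference between lines was called, with 0.01 ± 0.08 (SE) for MC38 and 0.05 ± 0.08 for LLC against 4T1.

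**Figure D4:**
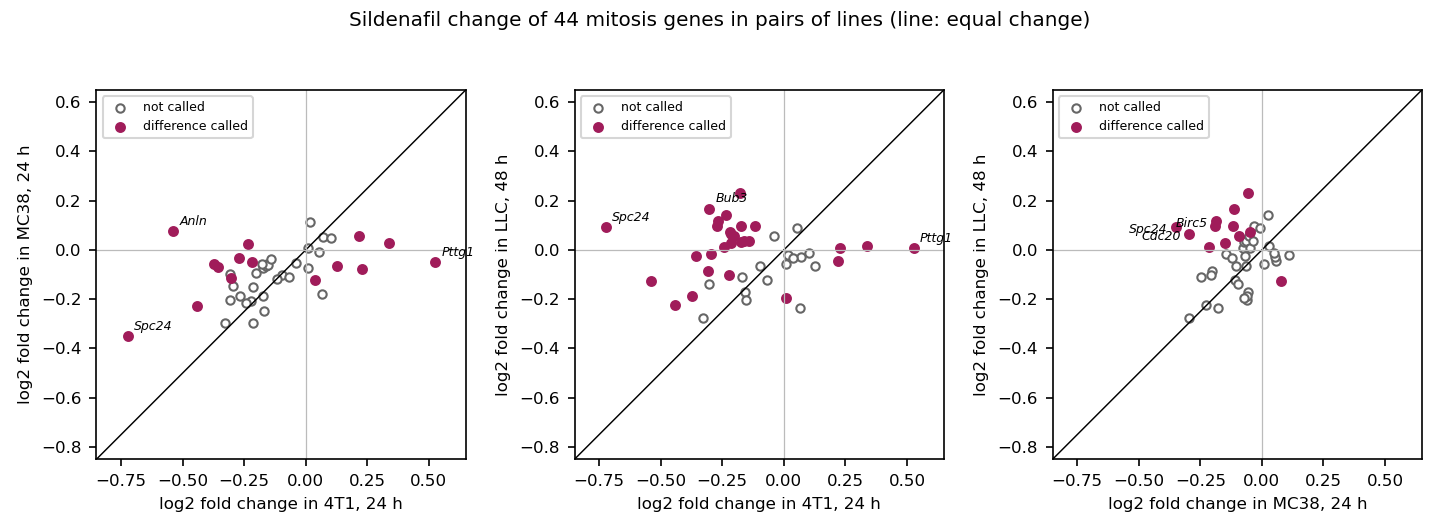
Log2 fold change with sildenafil of the 44 mitosis genes in one line (x axis) against another (y axis); filled points are genes whose changes differed between the lines at an adjusted p of 0.05, and the diagonal marks equal change. Most filled points of LLC against 4T1 lie above the diagonal (23 above, 5 below).

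The third comparison set the control cells of the lines side by side. All 44 mitosis genes had mean control levels above the median protein-coding gene with a count, the lowest of them at 18.1 ± 0.996 TPM in 4T1 (Spc25), 27.7 ± 0.552 TPM in MC38 (Cdc25c) and 18.9 ± 1.15 TPM in LLC (Ttk). That median stood at 14.9 TPM in 4T1, 16.6 TPM in MC38 and 16.2 TPM in LLC. Control MC38 had 27 mitosis genes higher and 14 lower than control 4T1, where 44.3% and 40.2% of 15385 genes were called. Control LLC had 28 higher and 12 lower than 4T1 (43.7% and 42.9%) and 28 higher and 12 lower than MC38 (38.5% and 38.7%). The median differences were 0.22, 0.29 and 0.21 on the log2 scale, against 0.04, 0.00 and 0.01 over all genes. Medium differed between 4T1 and the others, and growth density is not given in the sources used here.

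Mki67 spread widest, from 82.5 ± 5.56 TPM in 4T1 through 212 ± 21.1 TPM in MC38 to 446 ± 65.03 TPM in LLC (SD, n = 3). LLC exceeded 4T1 by 2.42 ± 0.09 (SE; edgeR adjusted p = 1.32e-09) on the log2 scale, and the libraries of the 3 lines did not overlap. Cenpf took the same order, from 27.7 ± 1.57 TPM through 42.3 ± 3.16 TPM to 98.5 ± 12.8 TPM, as did Espl1, from 24.5 ± 0.791 TPM through 49.6 ± 2.19 TPM to 82.4 ± 10.3 TPM. Top2a was highest in MC38, at 502 ± 18.6 TPM, against 409 ± 21.7 TPM in LLC and 224 ± 5.63 TPM in 4T1. Some genes ran the other way. Ube2c stood at 269 ± 5.13 TPM in 4T1, 148 ± 4.497 TPM in LLC and 106 ± 1.25 TPM in MC38. Spc24 took the same order, 102 ± 2.15, 67.6 ± 3.94 and 37.5 ± 2.21 TPM. Ttk, the kinase that starts checkpoint signalling, was 18.9 ± 1.15 TPM in LLC and 42.1 ± 1.301 TPM in MC38, a difference of -1.22 ± 0.04 (SE; edgeR adjusted p = 7.60e-12), with 4T1 near MC38 at 39.7 ± 0.513 TPM. Cdc25b stood at 141 ± 2.101 TPM in 4T1 and 66.4 ± 1.48 TPM in MC38, and Spc25 at 18.1 ± 0.996 and 41.4 ± 2.502 TPM. Foxm1 measured 86.8 ± 3.29 TPM in 4T1 and 56.5 ± 10.9 TPM in LLC, and Kif20a 152 ± 0.454 TPM in MC38 and 98.4 ± 5.65 TPM in LLC. Birc5 was highest in MC38 (204 ± 2.84 TPM) and Bub1b in LLC (262 ± 10.7 TPM). No single order of the lines held for all members. Bub3, at 79.9 ± 1.37, 81.6 ± 0.349 and 85.1 ± 1.66 TPM in 4T1, MC38 and LLC, was the one member called in no pair.

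**Figure D5:**
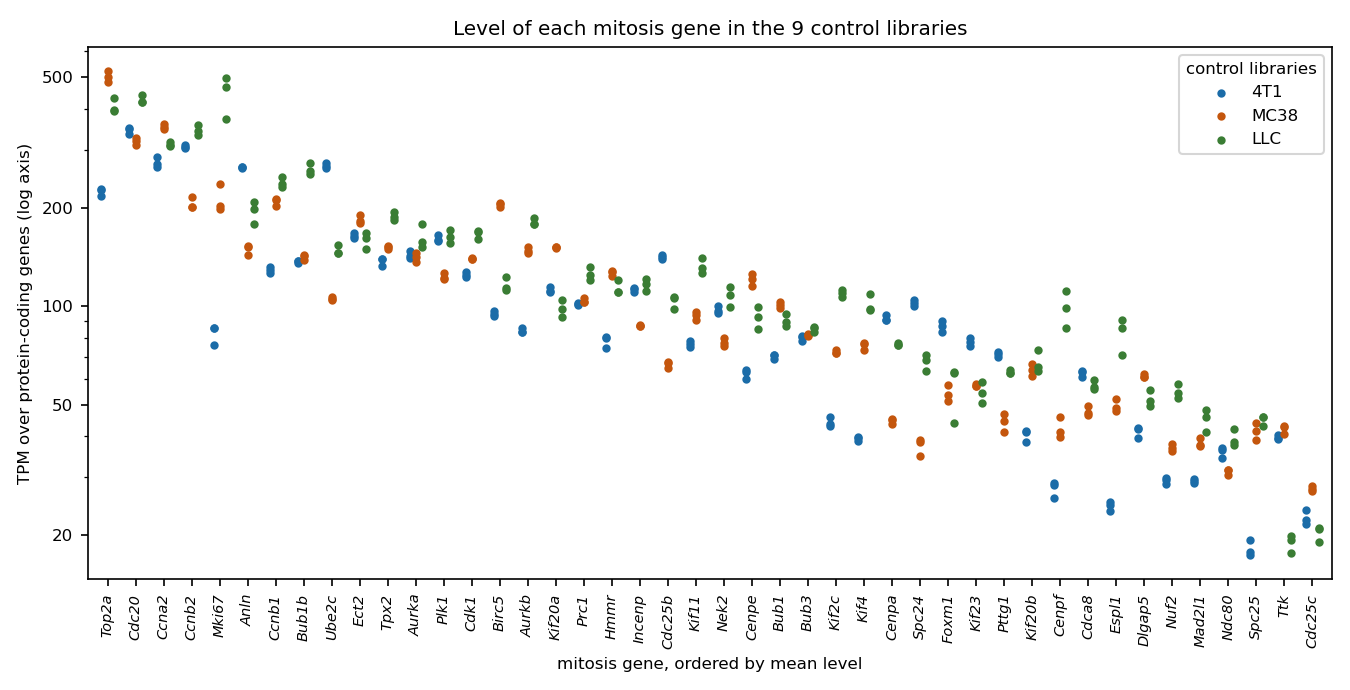
TPM over protein-coding genes (log axis) of each mitosis gene in the 9 control libraries, coloured by line and ordered by mean level. Mki67 ranges from 82.5 TPM in 4T1 to 446 TPM in LLC, while the points of Bub3 nearly coincide.

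Other genes of the same pathways, from lists chosen with earlier results known, were counted in the same fits. Their counts stand beside 33.3% of all genes called lower and 33.5% higher in 4T1, 18.3% and 19.5% in MC38, and 12.2% and 15.1% in LLC. Of 17 APC/C subunits and regulators 9 fell and 2 rose in 4T1, 5 fell and 2 rose in MC38, and 1 fell and 3 rose in LLC. Of 19 condensin and cohesin genes 12 fell and 0 rose in 4T1, with 4 and 2 in MC38 and 2 and 2 in LLC. Of 29 other kinetochore genes 16 fell and 2 rose in 4T1, 5 and 5 in MC38 and 1 and 6 in LLC. The 24 other kinesins and spindle factors tested had 11 falls and 2 rises in 4T1, 8 and 1 in MC38 and 6 and 2 in LLC. Of 9 regulators of mitotic entry 5 fell and 2 rose in 4T1, 5 and 3 in MC38, and 0 and 1 in LLC. Of 18 MuvB, B-MYB and E2F regulators 13 fell and 3 rose in 4T1, 5 and 6 in MC38 and 1 and 3 in LLC. E2f7, an E2F repressor, made the largest fall of these lists in 4T1 (-0.91 ± 0.04 (SE; edgeR adjusted p = 9.84e-10)).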

How the data were processed

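RNA-seq libraries (poly(A) capture, stranded kit, paired reads of 100 cycles) numbered 18, in 6 groups of 3. The deposited table holds expected counts per gene, not normalized; per the submitters' processing notes the authors used bcl2fastq 2.17, cutadapt 1.18, STAR 2.7.0f, RSEM 1.3.1 and the mm10 build. No source used here gives the strand setting of the counting or the annotation; all 55450 identifiers match GENCODE M21, which gave lengths and positions, and 18 members overlap a gene on the opposite strand.

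Counts were rounded and fitted with edgeR 4.0.16 (R 4.3.3): TMM factors, filterByExpr and the robust quasi-likelihood test, within each line for sildenafil, over 18 libraries for differences between lines and over 9 for controls, with Benjamini-Hochberg adjustment over all genes tested. The SE is the absolute log2 fold change divided by the square root of the F statistic. The scripts were tested on simulated data. No 2 libraries agreed within sampling noise. DESeq2 1.42.0, other scalings, filters and left-out libraries were alternatives. Members and lists were chosen with earlier results of these data known. Values are given in each library for 8 core genes and for the 4 members with the largest called fall and rise per line. They are also given for those called alike in all lines and, as summaries, for the 3 extremes per pair of lines. Of other lists, cell type markers apart, the called gene with the largest fall and rise per line is named. Promoters are RefSeq's, build GRCm38.p6.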

Additional observations from a re-analysis of the deposited data

Results flagged for a closer look

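Changes with sildenafil differed between lines, by edgeR's test of the difference over all 18 libraries, for the members with the largest called differences. MC38 against 4T1, as MC38 minus 4T1 on the log2 scale: Pttg1 differed by -0.59 ± 0.09 (SE; edgeR adjusted p = 2.78e-05). Spc25 differed by -0.33 ± 0.11 (SE; edgeR adjusted p = 0.0276) and Ccnb2 by -0.32 ± 0.07 (SE; edgeR adjusted p = 0.00152). In the other direction Anln differed by 0.60 ± 0.05 (SE; edgeR adjusted p = 4.37e-09). Spc24 differed by 0.36 ± 0.09 (SE; edgeR adjusted p = 0.0048) and Ect2 by 0.30 ± 0.05 (SE; edgeR adjusted p = 0.000124).

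LLC against 4T1, as LLC minus 4T1 and at 48 h against 24 h: Pttg1 differed by -0.52 ± 0.09 (SE; edgeR adjusted p = 6.69e-05). Spc25 differed by -0.32 ± 0.11 (SE; edgeR adjusted p = 0.0237) and Cdc25b by -0.26 ± 0.04 (SE; edgeR adjusted p = 4.64e-05). In the other direction Spc24 differed by 0.81 ± 0.09 (SE; edgeR adjusted p = 1.61e-07). Bub3 differed by 0.47 ± 0.06 (SE; edgeR adjusted p = 8.16e-07) and Anln by 0.41 ± 0.05 (SE; edgeR adjusted p = 5.31e-07). Pttg1 and Spc25, which rose in 4T1, are on both lists, and the lists share the 4T1 libraries.

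LLC against MC38, as LLC minus MC38: Anln differed by -0.19 ± 0.05 (SE; edgeR adjusted p = 0.00982). Spc24 differed by 0.46 ± 0.10 (SE; edgeR adjusted p = 0.00149), Cdc20 by 0.38 ± 0.05 (SE; edgeR adjusted p = 1.32e-05) and Birc5 by 0.32 ± 0.07 (SE; edgeR adjusted p = 0.0014).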

How the results depend on the processing

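Every called change within a line kept its sign under the alternatives run, except Cdca8 and Cenpe in MC38 with Gm26917 as a covariate, where 17 of the 19 calls kept theirs. A threshold of 1.5-fold left 1 lower and 0 higher in 4T1 and 0 in either direction in MC38 and LLC. Library totals alone gave 10 higher in 4T1, 2 higher in MC38 and 10 with a lower change in LLC than in 4T1. A filter of 5 CPM in 3 libraries gave 2 higher in MC38, 11 lower in LLC, 10 with a lower change in LLC than in 4T1 and 5 with a lower change in LLC than in MC38; protein-coding genes alone gave 2, 10, 8 and 2. Without a filter 2 were higher in MC38 and 0 had a lower change in LLC than in MC38. DESeq2 gave 0 higher in MC38, and 1 fit of all 18 libraries 0 there and 6 higher in LLC. With Gm26917 as a covariate, whose squared correlation with treatment was 0.856 in MC38 and 0.468 in LLC, 4 were lower and 0 higher in MC38 and 1 higher in LLC; Ccnb1, Cdc20, Spc24 and Prc1 kept their MC38 calls. The cause of these shifts was not tested. DESeq2 kept 33 of 33 calls in 4T1, 18 of 19 in MC38 and 8 of 9 in LLC. The fit of all 18 libraries kept 32 of 33 in 4T1, 13 of 19 in MC38 and 9 of 9 in LLC.

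Leaving out each library in turn gave 26 to 29 lower and 4 to 9 higher in 4T1 (9 without sildenafil replicate 3), 14 to 18 lower and 0 to 1 higher in MC38, and 1 to 10 lower and 0 to 8 higher in LLC. In LLC 1 was lower without sildenafil replicate 2, 0 were higher without sildenafil replicate 3, and 10 were lower and 8 higher without control replicate 3. It gave 4 to 7 lower and 6 to 9 higher changes in MC38 than in 4T1, 3 to 7 and 21 to 23 in LLC than in 4T1, and 1 and 9 to 15 in LLC than in MC38. Correlations between a control and a sildenafil library ran from −0.07 to 0.24 for the same replicate number and from −0.19 to 0.13 for different numbers. The largest was that of replicate 3 in MC38. Whether replicate numbers pair the libraries was not settled by these values. The replicate block gave 29 lower and 5 higher in 4T1, 23 and 2 in MC38 and 7 and 3 in LLC. The lowest count of a member in any library was 599; what depth or the number of libraries limits was not tested.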

Other observations

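Genes that act before mitosis were counted in the same fits, where 33.3% of all genes were called lower and 33.5% higher in 4T1, 18.3% and 19.5% in MC38, and 12.2% and 15.1% in LLC. Of 19 MCM and replication origin genes, which license and start DNA replication, 18 fell and 0 rose in 4T1 (median log2 fold change −0.41), 4 fell and 2 rose in MC38 (−0.01), and 0 fell and 9 rose in LLC (0.16). Cdc6, a licensing factor, changed by -0.82 ± 0.05 (SE; edgeR adjusted p = 9.16e-09) in 4T1 and by 0.40 ± 0.05 (SE; edgeR adjusted p = 0.000573) in LLC. In LLC that was the largest called rise of the listed genes, cell type markers apart. Of 8 G1/S cyclins and CDKs 6 fell and 0 rose in 4T1, 4 and 0 in MC38, and 2 and 4 in LLC. The differences between lines for these genes are not given here.

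Of 7 CDK inhibitors listed, which hold the cycle back, 4 were tested in 4T1 and all 4 rose, where 33.5% of all genes were called higher. The counts of this list in MC38 and LLC are not given here, and Cdkn1a fell in LLC. Cdkn1b (p27) changed by 0.60 ± 0.03 (SE; edgeR adjusted p = 1.21e-09) in 4T1 and by 0.32 ± 0.05 (SE; edgeR adjusted p = 7.19e-05) in MC38. Cdkn1a (p21) was at low levels: it changed by 1.21 ± 0.12 (SE; edgeR adjusted p = 2.09e-06) in MC38, from 2.25 to 5.20 CPM, and by -1.05 ± 0.13 (SE; edgeR adjusted p = 0.000402) in LLC, from 10.7 to 5.19 CPM. Of the listed genes, cell type markers apart, Rn7sk, an RNA without a poly(A) tail, had the largest called rise in 4T1 (0.97 ± 0.17 (SE; edgeR adjusted p = 0.000392)). On the same terms Gm26917 had the largest called fall in MC38 (-1.05 ± 0.21 (SE; edgeR adjusted p = 0.0217)).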
